A study of Mus musculus with 34 samples.

Results

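Coronal fractions 13, 14 and 15 form 1 end of a run of 15 consecutive coronal fractions cut through the brain of 1 mouse. They go by the working name of frontal cortex and olfactory bulb, which is set beside markers of both. They are 3 of the 15 coronal fractions and 3 of the 34 arrays of the series. The block was chosen by fraction number alone, with no measured value, and it was set against the other 12 coronal fractions (1 to 12) and against its neighbours 10 to 12. All 15 fractions come from mouse 1, a male C57BL/6J mouse aged 3 days, and each fraction pools 100 slices of 5 µm, a stretch of 500 µm. The labels name no treatment and no altered allele for any group. A horizontal run of 8 fractions (mouse 2) and a sagittal run of 11 (mouse 3) came from other mice of the same strain, sex and age. The labels do not give the direction of the count, so the place of the block rests on its genes. Each fraction is bulk tissue, in which fewer cells of a type and less RNA per cell cannot be told apart.

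The olfactory bulb receives the axons of sensory neurons of the nose. These axons arrive in an outer nerve layer wrapped by olfactory ensheathing glia and end in glomeruli, where mitral and tufted cells, the output neurons, take up the signal. Granule and periglomerular interneurons of the bulb are still being added after birth from neuroblasts that migrate along the rostral migratory stream. The frontal cortex lies behind the bulb and holds layered projection neurons, and the striatum lies beneath it.

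Levels are log2 signals set per array so that 0 lies close to that array's 75th percentile, and a difference of 1 is a 2-fold change. A level is compared only with other levels of the same probe. Of 43199 probes, 33788 were well above background in at least 3 coronal fractions and were tested with limma. In fractions 13 to 15, between 49.9% and 55.5% of spots were well above background, against 52.7% to 61.4% in fractions 1 to 12, and fraction 14 had the fewest such spots of the 34 arrays (29598). Fractions 13 to 15 were hybridised on 1 slide together with fractions 9, 10 and 11, while fractions 1 to 8 lay on another slide and fraction 12 on yet another, so slide and position overlap in part. Over the tested probes, fraction 13 correlated most with fraction 12 (r = 0.987) and fraction 14 (r = 0.986), and less with fraction 15 (r = 0.975). Fraction 15 correlated most with fraction 14 (r = 0.983) and least with fraction 4 (r = 0.955). These correlations run across 33788 probes, which share the same libraries and are not replicates.

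In fractions 13 to 15, 4 of 9 markers of olfactory bulb output neurons were higher than in fractions 1 to 12 and none was lower. Of 14 striatal markers 3 were lower. Pdyn among the 3 was not well above background in the block, so its call supports nothing. Gbx2 of the thalamus and the choline transporter gene Slc5a7 were among the genes with the largest negative differences. Against fractions 1 to 12, 1087 probes were higher (3.22% of those tested) and 1491 were lower (4.41%) at an adjusted p under 0.05 in limma. The higher probes stand for 777 gene symbols and the lower ones for 954. Of the higher probes, 344 differed by at least 1 on the log2 scale and 76 by at least 2, and of the lower ones 825 and 179. All of fractions 13, 14 and 15 lay above all 12 other fractions for 459 of the higher probes (42.2%), and all below them for 781 of the lower ones (52.4%). These probes were called on the same values, so such separation follows in part from the call. Its share over all tested probes was not computed. Of the tested probes, 4 were well above background in none of fractions 1 to 12. They passed the filter only through fractions 13 to 15 and so had to differ. All 4 were called higher. Probes well above background in some but fewer than 3 of fractions 1 to 12 also needed fractions 13 to 15 to pass the filter. Conversely, 3310 tested probes were well above background in none of fractions 13 to 15, and 351 of those were called lower. These entered the test only through fractions 1 to 12, so their calls support nothing and their values are a description. The same holds for each gene or probe named below as not well above background in the block.

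The counts depended on single fractions and on the slide. Without fraction 15, 173 probes were higher and 417 lower. Without fraction 14 these were 214 and 402, and without fraction 12 they were 3376 and 2767. Without fraction 7, 722 probes were higher. With the slide as a block, 383 probes were higher and 572 lower, and within the shared slide (13 to 15 against 9 to 11) 89 were higher and 435 lower. With another background correction (normexp), 1058 were higher and 660 lower, which turns the balance of the directions. The fractions are positions in 1 brain, so the p-values compare positions and carry no information on other mice.

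Ms4a15, a member of the membrane-spanning 4A family, ranked first among the genes called higher. It is 1 of the 4 probes well above background in none of fractions 1 to 12, so its call supports nothing and its values are a description. Its level was 0.01 in fraction 13, 3.07 in fraction 14 and 3.76 in fraction 15, against a lowest of -7.71, a median of -7.27 and a highest of -6.56 in fractions 1 to 12. No fraction of 1 to 12 was well above background, so the signal was at least 164-fold higher in fractions 13 to 15. Fractions 14 and 15 lay about 3 units above fraction 13.

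Transcription factors came next. Tbx21, a T-box factor of mitral and tufted cells, measured 0.37, 3.04 and 3.46 in fractions 13, 14 and 15, against -5.27 to -3.74 (median -4.31) in fractions 1 to 12. Its log2 difference was 6.69 ± 0.46 (SE, limma adjusted p = 3.9e-06). Tfap2e, an AP-2 factor known for its part in the development of bulb output neurons, measured -0.63, 1.65 and 2.22 against -7.35 to -3.76 (median -6.10), a difference of 6.85 ± 0.71 (adjusted p = 0.00022). Both genes were separated from every fraction of 1 to 12 already in fraction 13. Tfap2c, another AP-2 factor, measured 0.51, 2.41 and 2.65 against a highest level of -0.59 elsewhere, and differed by 4.09 ± 0.67.

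Cdhr1, a cadherin of photoreceptors and of mitral and tufted cells, measured 2.46, 5.21 and 5.42 against -0.53 to 0.91 (median 0.17) and differed by 4.24 ± 0.47 (adjusted p = 0.00025). S100a5, a calcium-binding protein of olfactory sensory neurons, measured -2.45, 1.52 and 3.31 against -3.87 to -3.30 (median -3.56) and differed by 4.37 ± 0.70 (adjusted p = 0.0026). The rise of S100a5 lay further out than that of Cdhr1, since fraction 13 was only about 1 unit above the rest and fraction 15 exceeded fraction 14. Bricd5 measured -0.95, 1.49 and 2.64 against -3.19 to -2.53 and differed by 3.84 ± 0.45.

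The other genes among the 15 with the largest differences of those called were Zpld1, Myoz1, Alox12, Akr1c18, Foxd3, Mybpc1, Tmprss5 and Atp6ap1l, with differences from 3.85 to 5.33. Zpld1 and Myoz1 were well above background in only 2 and 1 of fractions 1 to 12. They needed the block to pass the filter, so their calls support nothing. Alox12, an arachidonate lipoxygenase, measured -2.85, -0.79 and 0.59 against -5.93 to -4.42. Foxd3, a forkhead factor of the neural crest and its glia, measured -3.34, -0.54 and 0.57 and overlapped with fractions 1 to 12, whose highest level was -2.28 in fraction 3 (4.27 ± 1.22, adjusted p = 0.046). Myoz1 and Mybpc1, both known as muscle sarcomere proteins, and the serine protease gene Tmprss5 overlapped with the other fractions in fraction 13 too. A second probe of Mybpc1 was also higher (3.09). The next gene called, Scgn, which encodes the calcium-binding protein secretagogin of bulb interneurons, also entered the test only through fractions 13 to 15, and was at least 6.17-fold higher. Genes with differences of this size that did not pass the test are left out of this order, such as Dlx2 (4.21 ± 2.19) and Sp8 (4.13 ± 1.28). All 15 genes had their highest level in fraction 15 and their lowest of the 3 in fraction 13. Within the shared slide 6 of these 15 genes passed the test, and with the slide as a block 12 did. Ms4a15 is among the 6, and Ms4a15, Zpld1 and Myoz1 are among the 12.

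**Figure D1:**
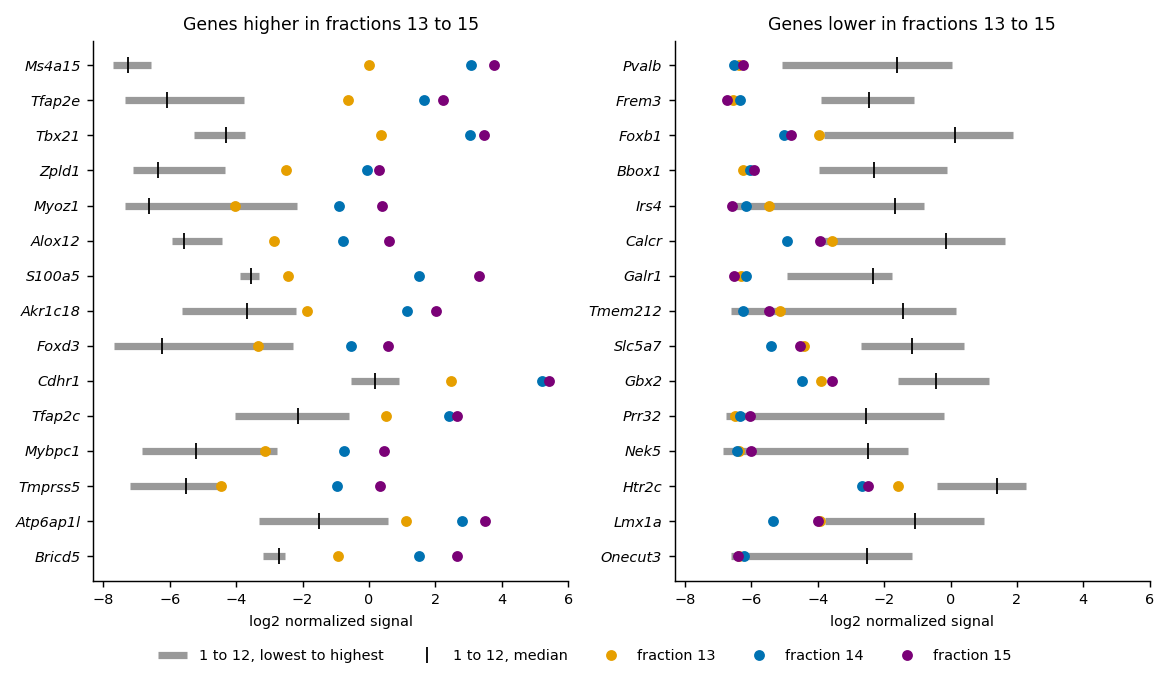
Of the genes called, the 15 with the largest positive differences (left) and the 15 with the largest negative differences (right) between fractions 13 to 15 and 1 to 12. The x axis is the log2 normalized signal; coloured points are fractions 13, 14 and 15, the grey bar runs from the lowest to the highest of fractions 1 to 12 and the black tick is their median. On the left, fraction 13 lies between the bar and the points of 14 and 15 for most genes, and inside the bar for Myoz1, Foxd3, Mybpc1 and Tmprss5.

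The promoters of 4 of these genes are printed as examples, and these are not the 4 with the largest differences. Ms4a15 (chr19:10993201-10993500), Tbx21 (chr11:97115282-97115581), Cdhr1 (chr14:37098298-37098597) and Alox12 (chr11:70255321-70255620) all lie on the minus strand of GRCm38.p6, and each window holds 250 bases before and 50 after the RefSeq start. Since Tfap2e, Tfap2c and Tbx21 are among the 15 genes, both strands were searched for the AP-2 letters GCCNNNGGC and the T-box letters GGTGTGA. RefSeq windows were given for 12 of the 15 genes (13 windows). The AP-2 letters were in 1 of the 13, that of Alox12, where capitals mark them 37 bases after the start, and the T-box letters were in none. Of all 32851 promoters of that length 16.6% hold the AP-2 letters and 3.98% the T-box letters, of those of the genes tested 23.6% and 3.60%, and of those of the genes called higher 21.2% and 2.52%. These are matches of letters in a window and do not mark bound sites.
Ms4a15: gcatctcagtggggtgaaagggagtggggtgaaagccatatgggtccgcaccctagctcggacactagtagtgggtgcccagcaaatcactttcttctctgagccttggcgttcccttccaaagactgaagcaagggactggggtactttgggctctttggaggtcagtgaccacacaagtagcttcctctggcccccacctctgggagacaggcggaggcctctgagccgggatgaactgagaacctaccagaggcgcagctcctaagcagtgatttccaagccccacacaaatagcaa
Tbx21: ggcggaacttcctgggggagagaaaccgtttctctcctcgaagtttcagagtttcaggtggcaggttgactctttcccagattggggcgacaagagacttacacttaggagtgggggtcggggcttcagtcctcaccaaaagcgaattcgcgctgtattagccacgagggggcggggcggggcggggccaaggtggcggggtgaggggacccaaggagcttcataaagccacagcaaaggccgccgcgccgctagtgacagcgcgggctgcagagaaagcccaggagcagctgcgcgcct
Cdhr1: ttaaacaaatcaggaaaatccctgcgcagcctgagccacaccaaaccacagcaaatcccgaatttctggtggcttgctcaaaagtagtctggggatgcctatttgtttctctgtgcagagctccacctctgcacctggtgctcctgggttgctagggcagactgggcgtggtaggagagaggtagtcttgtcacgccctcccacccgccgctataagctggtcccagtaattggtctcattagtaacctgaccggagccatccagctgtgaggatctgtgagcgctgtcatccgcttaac
Alox12: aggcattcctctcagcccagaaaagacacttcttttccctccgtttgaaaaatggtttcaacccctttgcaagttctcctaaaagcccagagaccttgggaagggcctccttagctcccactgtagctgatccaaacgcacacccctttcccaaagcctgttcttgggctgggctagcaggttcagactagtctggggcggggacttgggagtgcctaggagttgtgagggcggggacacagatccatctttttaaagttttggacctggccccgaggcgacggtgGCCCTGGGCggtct

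The mitral and tufted cell list had the largest median difference (3.29) of the 32 lists, all chosen with earlier results of these data known. Of its 9 genes, 4 rose against fractions 1 to 12 (Tbx21, Cdhr1, Eomes and Doc2g), 0 fell and 5 did not pass the test. The median of the list's differences from the mean of fractions 1 to 12 was 1.66 in fraction 13, 3.64 in fraction 14 and 3.97 in fraction 15. The same medians over all tested probes were 0.11, -0.02 and 0.11. Eomes, a T-box factor of these cells, measured 1.42, 3.78 and 3.97 against -1.73 to 1.55 (3.29 ± 0.68, adjusted p = 0.010). Doc2g, a member of the Doc2 family of C2 domain proteins, measured -0.62, 1.72 and 2.79 against -3.59 to -1.05 (3.58 ± 0.62, adjusted p = 0.0037). Among those that did not pass, the vesicular glutamate transporter gene Slc17a7 (0.72, 1.84 and 2.18, highest elsewhere 0.03) and Lbhd2 (1.36, 3.36 and 4.2, highest elsewhere 2.19) had their 2 highest levels in fractions 14 and 15, and reelin (Reln) differed by 0.86 ± 0.35. The list's summed signal, on the linear scale, was 58.4, 111 and 119 against 5.37 to 35.6.

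Markers of bulb interneurons moved in both directions. Of 21 genes, 5 were called higher (Scgn, Th, Etv1, Tshz1 and Synpr) and 2 lower (Calb1 and Tpbg). The call of Scgn counts for nothing, since it entered the test only through the block. Th, the rate-limiting enzyme of dopamine synthesis, measured 2.51, 4.18 and 4.69 against -0.05 to 3.42 (2.19 ± 0.56, adjusted p = 0.030). Fractions 14 and 15 lay above every other fraction, while fraction 13 lay below fraction 6, the highest of 1 to 12. Etv1, Tshz1 and Synpr rose by 1.45, 1.23 and 1.15. Synpr, which encodes the synaptic vesicle protein synaptoporin, measured 2.67, 3.94 and 4.37 against 2.16 to 2.88. The calcium-binding protein gene Calb1 was not well above background in any of the 3 fractions and was at least 3.02-fold lower. Its relative Calb2 measured -0.01, 1.29 and 2.11 against -1.32 to 0.79 and did not pass. Sp8, a transcription factor of these interneurons, measured 2.05, 3.47 and 3.69 against -6.65 to 1.91, did not overlap and did not pass (4.13 ± 1.28, adjusted p = 0.059). The list's median differences were 0.34, 1.74 and 1.86 in fractions 13, 14 and 15.

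Neuroblast genes gave a different profile, with median differences of 0.79, 0.79 and 0.26. Of 13 genes, 1 rose, the guidance receptor gene Robo2 (2.29, 3.15 and 2.85 against 1.98 to 2.39; 0.57 ± 0.14, adjusted p = 0.027). Doublecortin (Dcx), a microtubule protein of migrating neurons, measured 5.41, 5.49 and 4.76 against 3.97 to 5.19 and did not pass. Of 8 secreted signals known to act on these cells, 3 fell and 0 rose. Slit1 and Slit2, ligands of Robo receptors, fell by 0.76 and 0.94. Shh, which encodes the morphogen sonic hedgehog, was not well above background in the block (at least 1.03-fold lower), and its difference was 0.02 after normexp correction. The growth factor gene Igf1 measured -0.11, 2.10 and 2.55, did not pass against fractions 1 to 12 and was higher than fractions 10 to 12 by 2.65 (adjusted p = 0.028).

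Most genes of the olfactory nerve layer were highest in fraction 15 (6 of 8 tested), where 18.8% of all tested probes peaked. In the list for this layer and its ensheathing glia, 2 of 8 genes tested rose (Frzb and Foxd3) and 0 fell, and the level in fraction 15 exceeded that in fraction 13 for 8 of 8, against 49.3% of all tested probes. The median differences were -0.18, 1.17 and 2.19. Frzb, a secreted Wnt antagonist, measured -0.70, 1.78 and 2.71 against -2.81 to 0.40 (3.25 ± 0.69, adjusted p = 0.013). Sox10, a factor of oligodendrocytes and ensheathing glia, measured 1.62, 2.75 and 3.68 against 1.38 to 2.26 and did not pass. Its level in fraction 15 was the highest of the 15 fractions. Ngfr and S100b of the same list went the other way on average and did not pass. Ngfr measured 0.12, 0.32 and 0.25 against 0.55 to 3.11 (-1.34 ± 0.56), below every other fraction. S100b measured 0.34, 2.02 and 3.65 against 0.79 to 4.09 (-0.73 ± 0.73). The list's summed signal was 173, 267 and 547 against 174 to 286. Fabp7 (6.90, 7.50 and 8.51) weighs most in this sum, was not called (0.18) and is also on the astrocyte list.

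Among 10 tested genes of olfactory sensory neurons and their epithelium, 1 rose and 2 fell. Omp, the olfactory marker protein of mature sensory neurons, measured -2.46, 0.50 and 2.17 against -2.85 to -2.23 (2.57 ± 0.56, adjusted p = 0.014). Fraction 13 lay within the range of the other fractions, and fractions 14 and 15 lay far above it. Adcy3 and Ano2, an adenylyl cyclase and a chloride channel of the olfactory cilium, were called lower. Adcy3 fell by 0.52, and Ano2 was not well above background in the block (at least 1.49-fold lower). The G protein subunit gene Gng13 reached 4.63 in fraction 15 against a highest of 2.80 elsewhere outside the block and did not pass.

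**Figure D2:**
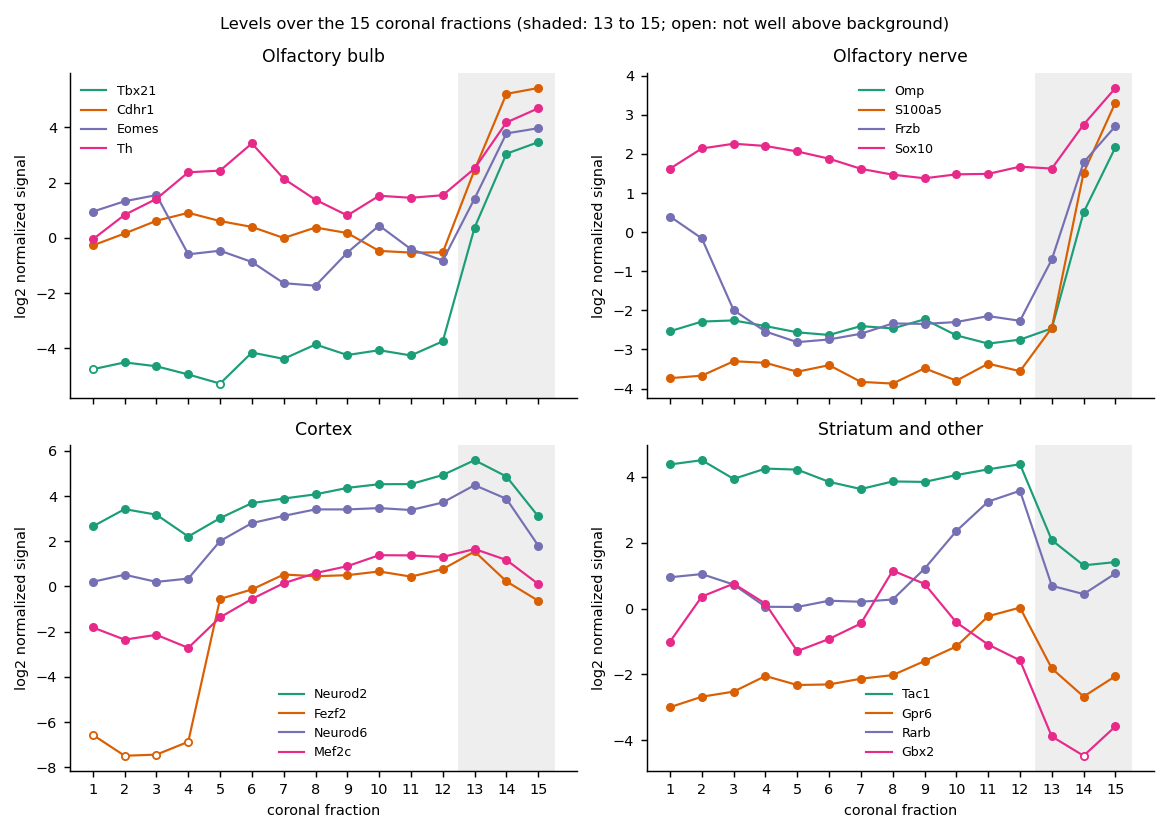
Levels of 16 genes over the 15 coronal fractions, in 4 panels. The x axis is the fraction and the y axis the log2 normalized signal of 1 array; the shaded band marks fractions 13 to 15, and open circles are values not well above background. The bulb and nerve genes drawn climb from fraction 13 to 15, and the cortical genes drawn are highest in fraction 13. Tac1, Gpr6 and Rarb drop from fraction 12 to fraction 13. The genes were picked and do not stand for their lists. Of 12 all-layer cortical markers, 4 peak in fraction 13, 2 in fraction 15 and 6 in fractions 1 to 12. Ngfr and S100b of the nerve layer list, lower in the block on average, are not drawn.

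The list of cortical neurons stood highest in fraction 13 by its median. Of 12 markers of cortical projection neurons of all layers, 0 rose and 0 fell against fractions 1 to 12, and the median differences were 2.07, 1.41 and 0.38 in fractions 13, 14 and 15. The genes were not uniform, as 4 had their highest coronal level in fraction 13, 2 in fraction 15 and 6 in fractions 1 to 12. Neurod2, a transcription factor of these neurons, measured 5.59, 4.86 and 3.10 against 2.21 to 4.93, and Neurod6 measured 4.48, 3.88 and 1.81 against 0.20 to 3.71. Fraction 13 exceeded all other fractions for both. Fezf2, which specifies deep layer neurons, measured 1.55, 0.22 and -0.63 against -7.49 to 0.77. None of these 3 passed the test against fractions 1 to 12, within which their levels ranged widely. Against fractions 10 to 12 the list's median difference was -0.06, and fraction 12 held Neurod2 at 4.93 and Neurod6 at 3.71. The list of rostral cortical area genes had a median difference of -0.03 against fractions 1 to 12. Of the working name, the olfactory bulb thus shows in markers that passed the test. The lists were chosen with earlier results of these data known, so they describe the block and do not test its name. Cortex shows in levels of fraction 13, with none of the 12 all-layer markers past the test. In the layer lists below, 1 of 12 upper layer genes rose. Of 16 deep layer and subplate genes, 2 rose and 3 fell. The cortical markers do not set frontal cortex apart from the neighbouring fractions.

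The layer lists differed in part. Of 12 upper layer genes, 1 rose (Mdga1, a cell adhesion protein, by 0.92) and 0 fell, and fraction 15 was lower than fraction 13 for 11 of 12. Mef2c, an upper layer transcription factor, measured 1.66, 1.17 and 0.11. Of 16 deep layer and subplate genes, 2 rose and 3 fell. Those that rose were Etv1, which is also on the bulb interneuron list, and Ccn2, a matrix protein of the subplate (2.22, 3.18 and 3.62 against 0.44 to 2.20, a rise of 1.51). Pcp4, a calmodulin-binding peptide, fell by 1.34, Zfpm2 by 1.09 and Foxp2, a forkhead factor of deep layer and striatal neurons, by 1.13 on one probe and by 0.86 on another. Tbr1, a T-box factor of both cortex and bulb output neurons, measured 5.42, 4.96 and 4.06 against -4.14 to 4.88 and did not pass. Of the genes known to pattern cortical areas, Cdh8, a cadherin, fell by 1.23 in the rostral list and Fgfr3, a growth factor receptor, by 1.84 in the caudal list, while Etv1 alone rose.

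Forebrain regulators as a list stood at median differences of 2.92, 3.09 and 3.12, with 0 of 10 past the test in either direction. Against fractions 10 to 12 the median difference was only 0.26, so the neighbouring block shared most of this height. The list's summed signal was 106, 106 and 87.5 against 2.25 to 124 in fractions 1 to 12. Emx1, a cortical homeobox gene of this kind, spanned a wide range in fractions 1 to 12 and measured 1.38, 1.25 and 1.53 against -6.53 to 1.13. At the other end of the brain, the Hox and glycinergic genes of the hindbrain had a median difference of -2.13 over the 3 fractions, with 0 of 16 past the test. Against fractions 10 to 12 their median difference was -0.08.

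Single genes of other regions were lower in the block, while most members of those regions' lists did not pass the test. Gbx2, a homeobox factor of the thalamus, measured -3.89, -4.47 and -3.58 against -1.57 to 1.15 (median -0.44), a difference of -3.68 ± 0.51 (adjusted p = 0.0011). The groups did not overlap. Slc5a7, the choline transporter of cholinergic neurons, measured -4.42, -5.39 and -4.52 against -2.68 to 0.41, a difference of -3.72 ± 0.55 (adjusted p = 0.0016), and its second probe differed by -2.12 and did not pass. Slc18a3, which loads acetylcholine into vesicles, fell by 2.78. Htr2c, a serotonin receptor, measured -1.57, -2.67 and -2.48 against -0.41 to 2.28 (-3.51 ± 0.46, adjusted p = 0.00073), and a second probe, not well above background in the block, was also called lower.

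Pvalb, the calcium-binding protein parvalbumin, was called lower too (adjusted p = 0.0062). Its levels were -6.36, -6.53 and -6.26 against -5.07 to 0.03, none of the 3 was well above background, and the signal was therefore at least 4.73-fold lower. A second Pvalb probe, well above background in all 15 fractions, fell by 1.85. Frem3, an extracellular matrix protein, was not well above background in the block either (at least 4.02-fold lower), and its second probe, likewise not above background there, was called lower too. Further genes of this kind were Foxb1, a forkhead factor of the hypothalamus and thalamus (at least 12.8-fold), Bbox1, an enzyme of carnitine synthesis (at least 4.71-fold), the galanin receptor gene Galr1 (at least 3.55-fold) and Tmem212 (at least 5.73-fold). Foxb1 was also low in the neighbouring fractions 10 to 12 (mean -3.51). Against these it differed by -1.09, and within the shared slide by -1.58, and it passed neither test. Irs4 and Nek5 were also among the 15 called genes with the largest negative differences, but their second probes differed by -0.06 and -0.53 and were not called. Calcr, Prr32, Lmx1a and Onecut3 completed the 15. Within the shared slide 13 of the 15 passed the test, and with the slide as a block 8 did. Among the 15, Pvalb, Frem3, Foxb1, Bbox1, Irs4, Galr1, Tmem212, Prr32, Nek5 and Onecut3 were not well above background in the block. Their calls within these counts support nothing.

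Some striatal genes were lower in the block, more of them beside the neighbouring fractions. Of 14 markers of striatal projection neurons, 3 fell against fractions 1 to 12 and 0 rose. Tac1, the precursor of substance P, measured 2.08, 1.31 and 1.41 against 3.63 to 4.51 (-2.50 ± 0.19, adjusted p = 8.2e-06) and had the clearest gap. Ebf1, a transcription factor of these neurons, fell by 2.43. Pdyn, the dynorphin precursor, was called lower from low levels (-4.75, -6.32 and -6.71 against -5.76 to -4.12), was not well above background in the block and has no fold that could be bounded. Against fractions 10 to 12, the count was 6 of 14 lower and 0 higher. Among these were Tac1, the orphan receptor gene Gpr6 (-1.73), the retinoic acid receptor gene Rarb (-2.33), the dopamine receptor gene Drd2 (-1.49) and Rgs9, a regulator of G protein signals (-1.47). Rarb measured 0.69, 0.44 and 1.07 in the block and 3.58 in fraction 12.

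Against all of fractions 10 to 12, 171 probes were higher (0.506% of those tested) and 248 lower (0.734%) in a fit of 3 groups. This comparison shares fractions 10 to 15 with the previous one. Of the 15 called genes with the largest positive differences against fractions 1 to 12, Tfap2e (7.52), Tbx21 (6.31), Cdhr1 (4.87) and S100a5 (4.37) were called here too, whereas Akr1c18 (3.44), Tfap2c (3.43), Myoz1 (4.66), Foxd3 (5.68) and Atp6ap1l (2.17) did not pass. Single fractions moved these counts. Without fraction 14, 20 probes were higher and 38 lower, without fraction 11 they were 21 and 29, and without fraction 13 they were 935 and 817. With normexp, 93 were higher and 70 lower.

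The 3 fractions differed among themselves. With 1 array each they carry no test. Fraction 13 was at least 1 above the mean of fractions 1 to 12 for 876 probes (2.59%) and at least 1 below it for 1811 (5.36%). In fraction 14 these were 952 (2.82%) and 2351 (6.96%), and in fraction 15 they were 2402 (7.11%) and 2635 (7.8%). Fraction 15 was at least 1 above fraction 13 for 2849 probes (8.43%) and at least 1 below it for 2103 (6.22%). Of the 1087 probes called higher, 765 (70.4%) had their highest coronal level in fraction 15, 220 (20.2%) in fraction 14 and 93 (8.56%) in fraction 13. Of all tested probes, 18.8%, 3.90% and 10.2% did. Peaks within the block follow in part from the call. Of the 1087, 609 (56.0%) climbed from 13 to 14 to 15. For 285 of the 1087 (26.2%) fraction 15 was at least 1 above fraction 13, and for 171 fraction 15 was at or below fraction 13. In 406 of the 1087 (37.4%), fraction 12 was the highest of fractions 1 to 12. The shares of all tested probes that climbed, or had fraction 12 highest of 1 to 12, were not computed.

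The genes that stood highest in fraction 13 included the cortical genes Fezf2 and Tbr1. Others of the 8 that led in fraction 13 rested on 1 array. Cdnf, a neurotrophic factor, measured 3.65 in fraction 13 and -4.92 and -4.91 in fractions 14 and 15, and Gpx2, a glutathione peroxidase, measured 1.55, -2.59 and -2.44. Prlh, Cyp2u1, Arhgap42 and Itprid1 completed the 8, and a second Arhgap42 probe did not rise in fraction 13 (-1.81 against a median of -1.84 elsewhere). None of the 8 passed the test.

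Of the 8 genes that led in fraction 14, Olfr1410, an olfactory receptor gene, was called (2.21 ± 0.61, adjusted p = 0.041). Lsmem1 (-3.60, -2.04 and -2.13, at least 5.61-fold higher) entered the test only through fractions 13 to 15, and its call supports nothing. Olfr1410 measured -4.74, -0.45 and -3.75, so its call rested on fraction 14. Dlx2 and Dlx6os1, a homeobox factor of interneuron precursors and a noncoding RNA at a Dlx locus, measured 2.61, 3.16 and 3.07 and 0.31, 1.44 and 1.36. Anxa7, an annexin, measured 5.84 in fraction 14 with 0.46 and 0.27 on either side, and its second probe did not show this (-1.11 in fraction 14). Treh and Rpl10l also led there. Values at least 3 above the next highest coronal value were found for 6 probes in fraction 13, 6 in fraction 14 and 3 in fraction 15, and for 0 to 11 probes in each of fractions 1 to 12.

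The other 2 mice give levels that the choice of genes did not use. In the horizontal run, all 15 called genes with the largest positive differences had their highest level in fractions 6 to 8, where 28.2% of all tested probes had theirs. In the sagittal run, 14 of the 15 had it in fractions 5 to 7, against 23.5% of all, the exception being Atp6ap1l (fraction 10). Of the 15 called genes with the largest negative differences, 9 peaked in horizontal fractions 6 to 8 and 9 in sagittal fractions 5 to 7. Of all 1491 probes called lower, 47.9% and 50.6% did. These positions are thus not particular to the genes called higher. Tbx21 reached 0.02 in horizontal fraction 6 and 0.32 in sagittal fraction 5, with lowest levels of -4.64 and -4.31. Cdhr1 reached 2.60 and 2.90 in horizontal fraction 7 and sagittal fraction 5, with lowest levels of 0.20 and -0.47. Of the 76 probes higher by at least 2, 88.2% peaked in horizontal fractions 6 to 8 and 67.1% in sagittal fractions 5 to 7. Of all 1087 probes called higher, 45.1% peaked in horizontal fractions 6 to 8 and 46.6% in fractions 1 and 2. In the sagittal run 17.8% of the 1087 peaked in fractions 5 to 7 and 46.9% in fraction 1, where 27.7% of all tested probes did.

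Probes that did not climb towards fraction 15 had other peaks in those mice. Of the 171 probes called higher with fraction 15 at or below fraction 13, 63.7% peaked in horizontal fractions 1 and 2, where 41.9% of all tested probes did, and 22.2% in fractions 6 to 8. Of the 285 with fraction 15 at least 1 above fraction 13, 75.1% peaked in horizontal fractions 6 to 8. In the sagittal run, 66.7% of the 171 peaked in fraction 1, while of the 285 46.3% peaked in fractions 5 to 7 and 26.0% in fraction 11, where 11.3% of all did. The cortical gene Fezf2 was highest in horizontal fraction 2 (1.51) and sagittal fraction 2 (1.56).

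**Figure D3:**
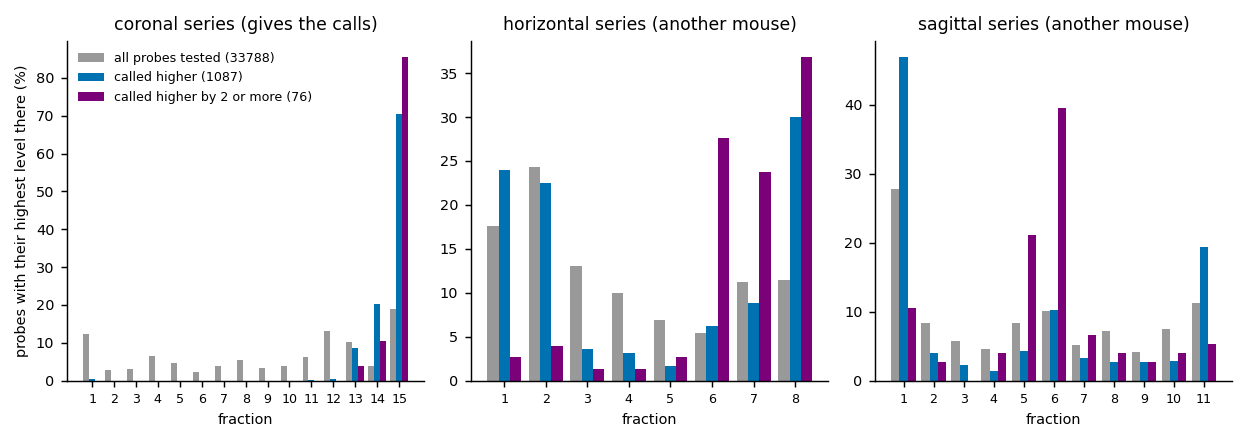
Share of probes (y axis, percent) with their highest level in each fraction (x axis) of the coronal, horizontal and sagittal runs, for all 33788 tested probes, the 1087 called higher and the 76 called higher by at least 2. In the coronal run the peaks in fractions 13 to 15 follow from the choice of probes; in the other mice the 76 probes peak mostly in horizontal fractions 6 to 8 and sagittal fractions 5 to 7.

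Of 6373 tested probes for long noncoding RNAs (lncRNAs), 94 were higher (1.475%) and 156 lower (2.448%), beside 3.22% and 4.41% of all probes. The lowest was A_30_P01027176 (-4.48, -4.88 and -5.39 against -2.47 to 0.08), which was well above background in none of fractions 13 to 15 and was at least 8.84-fold lower. It lies in an interval on the forward strand of chromosome 8, 83210957 to 83219451 in mm9, and all 3 probes of that interval were called lower (A_30_P01032677 by -3.56 and A_30_P01018173 by -2.96). A_30_P01018173 was not lower in fraction 15 (-6.36, -6.21 and -1.92 against a median of -1.85), and its call was lost within the shared slide (adjusted p = 0.29) and with the slide block (adjusted p = 0.13). The 2 tested probes of an interval on chromosome 14, 49288962 to 49413023, A_30_P01024086 and A_30_P01031980, were both called lower. Neither was well above background in the block, and they were at least 3.27-fold and at least 3.47-fold lower.

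The highest lncRNA probes differed less. A_30_P01031348, on the reverse strand of chromosome 3 at 51804655 to 51805883, measured -4.33, -0.99 and -2.69 against -5.58 to -3.69 (2.00 ± 0.51). A_30_P01026872, in a forward interval of chromosome 3 at 34003359 to 34537330, measured -1.64, -0.93 and -0.35 against -3.89 to -1.50 (1.89 ± 0.46), and 2 of the 3 probes of that interval were called higher. A_30_P01021924, A_30_P01027467 and A_30_P01020248 differed by 1.89, 1.85 and 1.81. They were well above background in only 1, 2 and 2 of fractions 1 to 12. All of them needed the block to pass the filter, so their calls support nothing. A_30_P01017714, an lncRNA singled out by the study, measured 0.38, 0.89 and 1.51 against -0.46 to 0.60 (0.83 ± 0.22, adjusted p = 0.032), and Abhd4, a lipase named with it, measured 5.71, 6.52 and 7.19 against 5.22 to 5.94 (0.96 ± 0.23, adjusted p = 0.021). Both climbed from fraction 13 to 15. A_30_P01030305, Lhx8, Isl1 and Sox14, which the study also names, were not called (0.18, 0.42, -1.61 and -1.37).

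Markers of cells other than neurons moved in places, and their part in the results above was not tested. Of 12 genes of meninges and fibroblasts, 2 rose and 0 fell, and fraction 15 exceeded fraction 13 for 12 of 12. Slc22a6, an organic anion transporter of the meninges, measured 3.11, 3.73 and 3.57 against 1.52 to 2.65 (1.52 ± 0.23, adjusted p = 0.0019), and Foxc1, a forkhead factor of meningeal cells, rose by 1.11. The collagen gene Col1a1 and decorin (Dcn) reached 4.46 and 6.34 in fraction 15 and did not pass. The list's summed signal was 437, 618 and 779 against 258 to 742.

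Of 5 tested genes of bone and cartilage, 3 rose, Acan (1.33), Ibsp (2.60) and Sp7 (2.03), from low levels. Their list summed to 0.588, 2.17 and 3.15 against 0.474 to 5.10. Of 7 red blood cell genes 1 rose (Slc4a1, 1.16; summed signal 91.7, 94.8 and 159 against 33.0 to 158). Of 9 endothelial and pericyte genes 2 rose, the tight junction gene Cldn5 (0.88) and Pdgfrb (0.52), with a summed signal of 50.8, 52.8 and 53.9, above the range of 25.5 to 41.8 in all 3 fractions. Of 8 microglial genes 1 rose (Tmem119, 0.97; 61.4, 61.1 and 85.3 against 49.8 to 71.8). Of 5 tested muscle genes 1 fell (Tnnt3, by 1.76), with a summed signal of 2.71, 2.91 and 3.41 against 1.92 to 7.08.

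Some genes of oligodendrocytes were lower, and those of astrocytes moved in both directions. Of 14 genes of oligodendrocytes and myelin, 4 fell, Gpr17 by 1.62, Mag by 2.54, Olig1 by 0.79 and Mbp, the myelin basic protein, by 0.51, and 0 rose. The list summed to 52.9, 85.7 and 138 against 56.0 to 147. Of 13 astrocyte and radial glia genes, Glul, glutamine synthetase, rose by 0.88, while Gfap, the glial filament protein, fell by 1.75 and Sox9 by 0.63. The list summed to 269, 366 and 626 against 294 to 412, and Fabp7 counts in this sum as in that of the ensheathing glia. Of 8 choroid plexus genes, Otx2 fell by 2.55, and transthyretin (Ttr) measured 3.39, 2.65 and 3.88 against -0.99 to 8.33 without passing. The choroid plexus list summed to 14.6, 13.6 and 32.5 against 8.17 to 375.

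**Figure D4:**
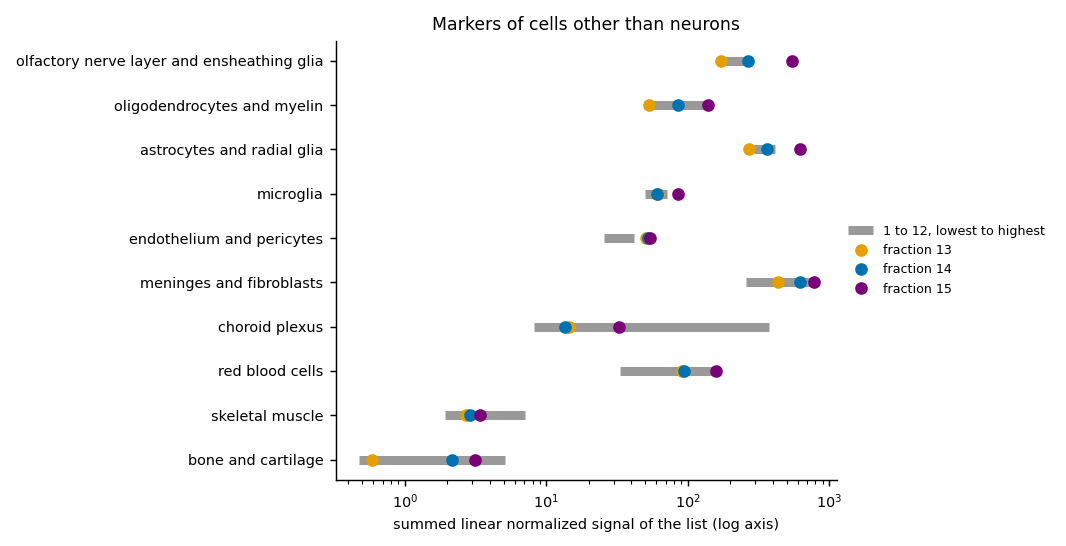
Summed linear normalized signal (x axis, log scale) of the tested members of 10 lists of cells other than neurons (y axis) in fractions 13, 14 and 15, with the grey bar from the lowest to the highest of fractions 1 to 12. Fraction 15 lies above the bar for ensheathing glia, astrocytes, microglia, endothelium and meninges, and just above it for red blood cells. All 3 fractions lie above it for endothelium. Fabp7 counts in both the ensheathing glia and the astrocyte sums.

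The remaining lists held few calls. Of the basal forebrain and septum list 2 of 9 fell (Slc18a3 and Zic4), of the thalamus list Gbx2 fell and Lef1, a Wnt pathway factor, rose by 0.83, of the hypothalamus list galanin (Gal) fell by 1.33 and of the midbrain list Lmx1a fell by 3.50. The cerebellum list's only call was Eomes, which mitral and tufted cells also express. No gene of the lists for dividing cells (10), hippocampus (8) or immediate early response (8) passed in either direction, and 1 of 14 adhesion and guidance genes fell.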

How the data were processed

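The authors hybridised RNA of each fraction to a 1-colour Agilent mouse array with lncRNA probes and read it with Agilent Feature Extraction 10.10.1.1. The deposited table gives log2 values normalized per array: in the array with the lowest share, 99.89% of them equalled the log2 processed signal less a constant close to the 75th percentile (within 0.02). The deposited scanner files give the intensity of each spot, its background and flags, and supplied the background calls and the alternatives. Probes were named where they matched 1 RefSeq symbol of GRCm38.p6 (23369 of 43199). The test was limma's moderated linear model (version 3.58.1, R 4.3.3) over 2 groups of fractions, or 3 for the neighbouring block, adjusted by Benjamini-Hochberg over all 33788 probes, with calls at 0.05. The script was tested on simulated data. Tables and figures were made with Python 3.11.15, numpy 2.4.6, pandas 2.3.3 and matplotlib 3.10.9.

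Fractions are neighbouring positions in 1 mouse and not independent animals, so p-values measure only the spread between positions. Named genes were the 15 largest differences in each direction among the genes called (1 probe a gene), the 8 genes leading in each fraction, the 5 lncRNA probes in each direction, list members and genes the study names. Some genes that this rule names are not reported here. The members and the 32 lists were chosen with earlier results of these data known. "At least" folds set the bright group's mean against the dim group's lowest signal well above background, or the probe's own signal where higher. Arrays hold no read depth, and 1 array a fraction limits the precision. Alternatives changed the values used, the scaling, the background correction, the filter, the trend of the test, the slide and the fractions left out.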

Additional observations from a re-analysis of the deposited data

Results flagged for a closer look

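In the horizontal run of 8 fractions, 4 of the 36 genes examined had 1 fraction whose gap to the nearest other value was large against the whole range (Dixon's 95% limit for 8 values). Gbx2 measured -5.80 in horizontal fraction 2, with -1.94 next (gap over range 0.589). Bbox1 measured -4.99 there, with -2.99 next (0.563), and Nek5 measured -7.41, with -4.32 next (0.535). Tbr1 measured 3.72 in horizontal fraction 1, with 4.13 next (0.543). Chance marks about 1 in 20 such groups.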

How the results depend on the processing

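No paired analysis was possible because the groups compared are different positions and share no replicate numbers. Against fractions 1 to 12 (1087 higher, 1491 lower), the slide block gave 383 and 572, the shared slide alone 89 and 435, and normexp 1058 and 660. Leaving out 1 fraction gave 173 to 3376 higher and 402 to 2767 lower. The lows came without fractions 15 and 14 and the highs without fraction 12. Against fractions 10 to 12 (171 and 248), normexp gave 93 and 70, the slide block 58 and 159, and fractions 9 to 11 on the shared slide in place of 10 to 12 gave 89 and 435. A filter of 1 fraction above background gave 113 higher, no filter 104 higher, and all 15 fractions above background 152 lower. Leaving out 1 fraction gave 20 to 935 higher and 29 to 817 lower. The count moved by over 1.5 times without fraction 1 (448 and 560), 10 (32 and 52), 11 (21 and 29), 13 (935 and 817), 14 (20 and 38) and 15 (31 and 82), and for higher probes also without 3 (108), 5 (110), 6 (105), 7 (102) and 12 (73). The cause of these changes was not tested.

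The counts at least 1 above and below the mean of fractions 1 to 12 were, with normexp, 244 and 343 in fraction 13, 409 and 493 in fraction 14 and 939 and 779 in fraction 15. With all 15 fractions above background they were 319 and 560, 548 and 673, and 1228 and 1348. Fraction 13 was above for 1711 probes with the filter of 1 fraction, and without a filter the counts above were 2137, 1507 and 4176. Leaving out 1 of fractions 1 to 12 gave 819 to 1000 above and 1706 to 1961 below in fraction 13, 909 to 989 and 2275 to 2497 in fraction 14, and 2338 to 2500 and 2570 to 2761 in fraction 15.

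Of 897 differences of the 94 named genes called, recomputed under settings other than leaving out a fraction, 730 stayed past the threshold in the same direction, 166 no longer passed and 1 changed sign (Shh, 0.024 with normexp). Signs also changed for genes not called. With the slide block and within the shared slide these were Fezf2 (-0.15), Neurod6 (-0.029), Mef2c (-0.24), Itprid1 (-0.43), Lhx8 (-4.62), Sox14 (0.22) and A_30_P01030305 (-0.12). With normexp Lhx8 was at -0.64. Without fraction 13, Cdnf, Arhgap42, Gpx2 and Cyp2u1 changed sign, and over all fractions left out in turn they ranged from -0.95 to 3.34, -0.51 to 2.01, -0.23 to 1.84 and -0.42 to 1.65. Low signals limit the genes at or near background.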
